A study of Mus musculus with 2 samples.

Results

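The 8 carbonic anhydrase genes Car1, Car2, Car3, Car4, Car8, Car9, Car12 and Car13 were described across the cells of mouse bone and marrow. They were taken by gene name from the 32285 genes of the count matrices, of which 21698 had at least 1 UMI (a tag that marks an original RNA molecule) in a kept cell. The cells came from the femur and tibia of 3 untreated male INK-ATTAC mice aged 24 months, pooled into 1 sample. This strain carries a caspase 8 transgene under the p16 promoter, which acts only with a drug that these mice did not get. Bone and marrow were digested, red cells were lysed, cells with lineage markers (Ter-119 among them) were removed on magnets, and live CD45- cells were sorted and sequenced by 10x Genomics 3′ single-cell RNA-seq.

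The labels give 2 replicates of this sample, but 10928 of the 11056 barcodes occurred in both. They were therefore taken to hold the same cells, are called lanes here, and had their UMIs summed per barcode. The squared difference between the lanes over the summed counts was 0.559, below the 1 of independent counts, so a molecule can be counted in both lanes. A summed UMI total can thus exceed the number of molecules, and like values in the lanes are no replicate check. The intervals were made on the mean of the lanes. The 9573 barcodes with at least 200 genes and at most 20% mitochondrial UMIs were kept. With 1 biological sample there is no replicate: every 95% interval given here is exact and covers counting error only, and no test between groups of cells was possible. Levels are CPM, the UMIs of a gene added up over a group of cells and set against all UMIs of these cells. A 3′ UMI counts a molecule whatever the length of the gene, so the levels of different members can be set side by side on this scale.

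The label calls the cells mesenchymal, but 8 of 16 clusters, with 6428 cells (67.1% of those kept), were erythroid by their markers. Another 1127 cells were LEPR stromal cells, the leptin receptor-positive cells that make Cxcl12 in the marrow. Those named megakaryocytes numbered 132, and plasma cells 44. Some cells of the megakaryocyte group had no UMI of the megakaryocyte list, and the group also held markers of other cells, given with Car9. A second clustering of the fibroblast cluster, added after its values were seen, gave 44 fibroblasts, 24 osteoblasts and 45 endothelial cells. The list of erythroid markers summed to 3607 CPM in erythroid and 211 CPM in LEPR stromal cells, and the LEPR list to 50.9 and 47625 CPM. In the endothelial cells the LEPR list still reached 4378 CPM, of which 79.2% was Cxcl12, and the adipocyte list 11664 CPM, all of it Fabp4. A cluster of 805 cells with LEPR markers stayed unnamed because its median depth was 3252 UMIs, against 9857 over all kept cells, and no LEPR marker led it. The lineage depletion and the CD45 gate set which erythroid cells, and which share of each class, could be seen.

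Carbonic anhydrases turn carbon dioxide and water into bicarbonate and a proton, and back, at a zinc ion held by histidines. In red cells the cytosolic enzymes Car1 and Car2 serve the carriage of carbon dioxide, bicarbonate leaves through the anion exchanger Slc4a1, and in osteoclasts Car2 supplies the protons that dissolve bone mineral. Car3 and Car13 are cytosolic too, Car4 is held on the outer cell surface by a lipid anchor, Car9 and Car12 span the membrane with the catalytic part outside, and Car8 is a cytosolic relative that has lost the enzyme activity.

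The stretch around the first zinc ligands shows how close the enzymes are. Each line gives 30 coding bases, 5′ to 3′ on the coding strand, from the GENCODE M21 transcripts of build GRCm38. Capitals mark the codons of the first and second zinc-binding histidines.
Car1: actcagttcCATtttCACtggggcaactca
Car2: atccagtttCACtttCACtggggctcatct
Car3: cgccaattcCATcttCACtggggctcctct
Car13: cggcagttcCATttgCACtgggggtcagca
Car4: gtacagttgCACctgCACtggtcaaatggg
Car9: ttgcagttgCATctaCACtggggaacttca
Car12: gagcagctgCACttgCACtgggggaaccgc
In these 7 genes both marked codons encode histidine (CAT or CAC). The Car1 and Car2 stretches were identical at 22 of 30 bases, those of Car1 and Car9 at 21, and those of Car2 and Car4 at 16.

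The cytosolic enzymes Car13, Car1, Car3 and Car2 lie in this order on chromosome 3, and they are the 4 protein-coding genes among the 6 genes of a span of 259 kb. Car13 occupies chr3:14641727-14663002 on the plus strand, Car1 chr3:14766216-14808368 on the minus strand, Car3 chr3:14863512-14872523 and Car2 chr3:14886273-14900770, both on the plus strand. Whole coding sequences of these neighbours were 62.1 to 65.2% identical. Car8 (chr4:8143362-8239041, minus strand), Car9 (chr4:43506966-43513729, plus strand), Car12 (chr9:66713686-66766845, plus strand) and Car4 (chr11:84957786-84966044, plus strand) lie apart. The printed stretch falls in exon 3 of the chromosome 3 genes, and in exon 4 of Car4, Car9 and Car12. No member but Car8 shared a 50-base word of its last 500 transcript bases, where 3′ reads fall, with another gene. Car8 shared 21 such words with 7 other genes, so a part of its few UMIs is uncertain.

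The neighbours on chromosome 3 differed by orders of magnitude in this sample, and Car2 and Car1 held nearly all carbonic anhydrase molecules of the members. Over the kept cells Car2 had 902610 UMIs in 8467 cells and Car1 357518 UMIs in 7173 cells. Car3 had 1275 UMIs in 530 cells and Car13, which lies beside Car1, 627 UMIs in 425 cells. The genes on other chromosomes were scarcer still, with 39 UMIs of Car8, 28 of Car4, 20 of Car9 and 6 of Car12.

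**Figure D1:**
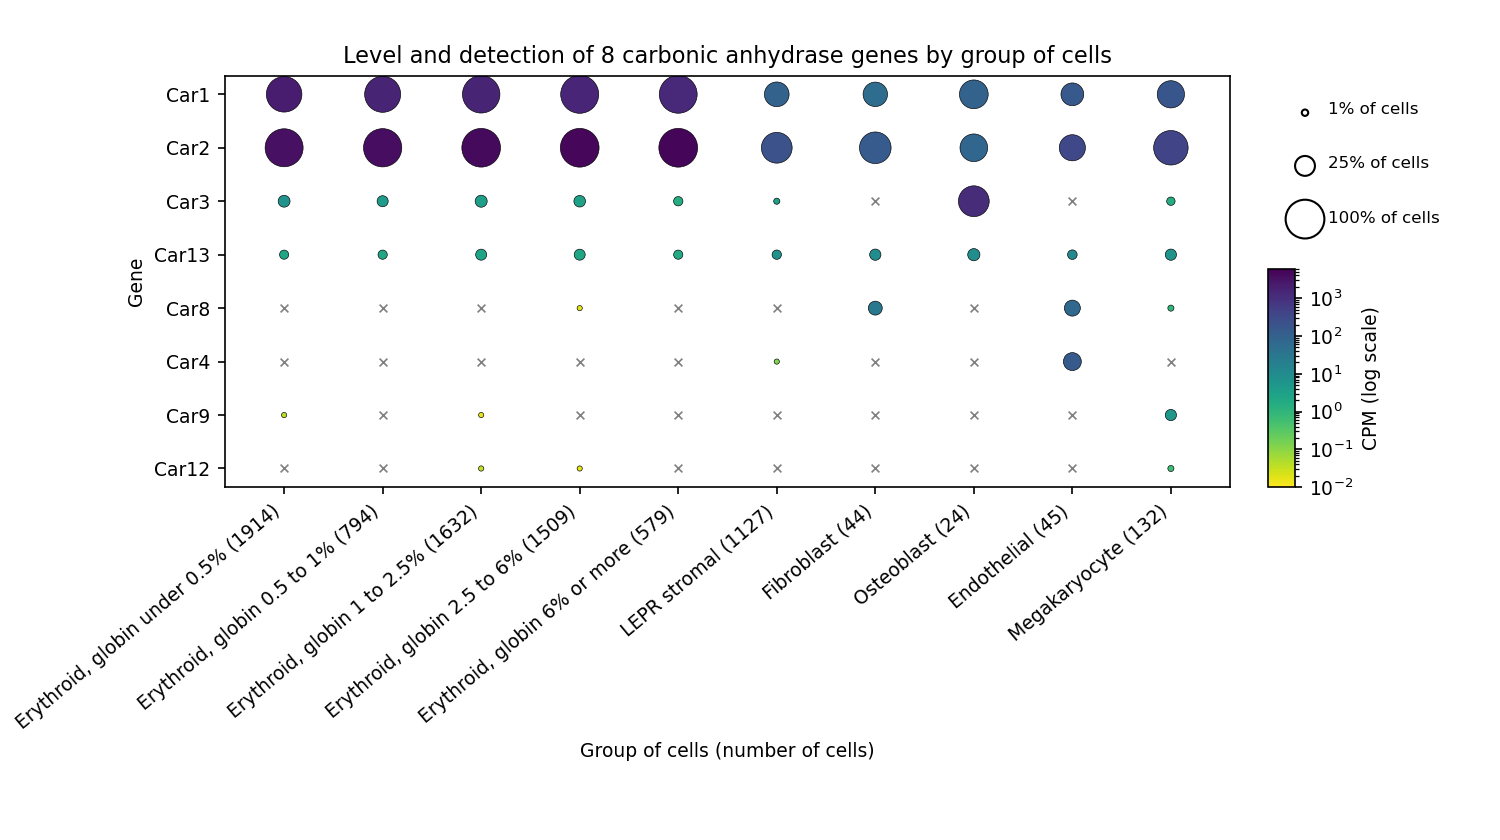
Level and detection of the 8 members (rows) in named groups of cells (columns, number of cells in brackets). Colour is the level in CPM of summed UMIs on a log scale, the area of a circle is the percent of cells with a UMI, and a cross marks 0 UMIs. Car1 and Car2 fill the erythroid columns, while Car3 is at 1153 CPM in osteoblasts and Car4 at 145 CPM in endothelial cells.

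Erythroid cells were ordered by the share of their UMIs that came from the 8 globin genes, which grows as red cell precursors mature. Car1, the enzyme with the slower turnover of the pair, was highest in the cells with the least globin and lower in those with more. In the 1914 cells under 0.5% globin its level was 2096 CPM (95% interval 2078 to 2115), and the lanes gave 2094 and 2098 CPM. It was 1594 CPM in the 794 cells at 0.5 to 1%, 1559 CPM in the 1632 cells at 1 to 2.5% and 1522 CPM in the 1509 cells at 2.5 to 6%. In the 579 cells with 6% or more it was 1389 CPM (1365 to 1412). Most of the difference lay in the first step, a log2 ratio of -0.39 (-0.42 to -0.37), and the next 2 steps were -0.03 each.

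Car2, the fast enzyme, went the other way. Its level was 3388 CPM (3364 to 3411) in the cells under 0.5% globin, then 3759, 4259 and 4637 CPM, and 5101 CPM (5056 to 5146) in the cells with 6% or more. Each step was a log2 ratio of 0.12 to 0.18, and no interval of a step reached 0. The Car1-to-Car2 ratio of UMIs, in which depth cancels, was 0.619 in the lowest bin, 0.424, 0.366 and 0.328 in the middle ones and 0.272 in the highest.

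Between the ends of the range the log2 ratio was -0.59 (-0.62 to -0.57) for Car1 and 0.59 (0.57 to 0.61) for Car2, and -1.18 (-1.22 to -1.15) for the Car1-to-Car2 ratio. Against these stands the background of all genes: of 11577 genes with at least 10 UMIs in both bins together (mean of the lanes), 4.39% were at least 2-fold higher and 29.1% at least 2-fold lower in the globin-rich cells, and the median log2 ratio was -0.53. Car1 thus lay near the median gene, and Car2 above it. Of the 8 members 4 had enough UMIs, none was 2-fold higher and 1, Car3, was 2-fold lower. The sizes depended on how cells were weighted: with the mean of per-cell CPM the log2 ratios were -0.22 for Car1 and 1.01 for Car2, and with every cell thinned to 2000 UMIs -0.35 and 0.88, while the ratio of the pair stayed at -1.24 in both.

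**Figure D2:**
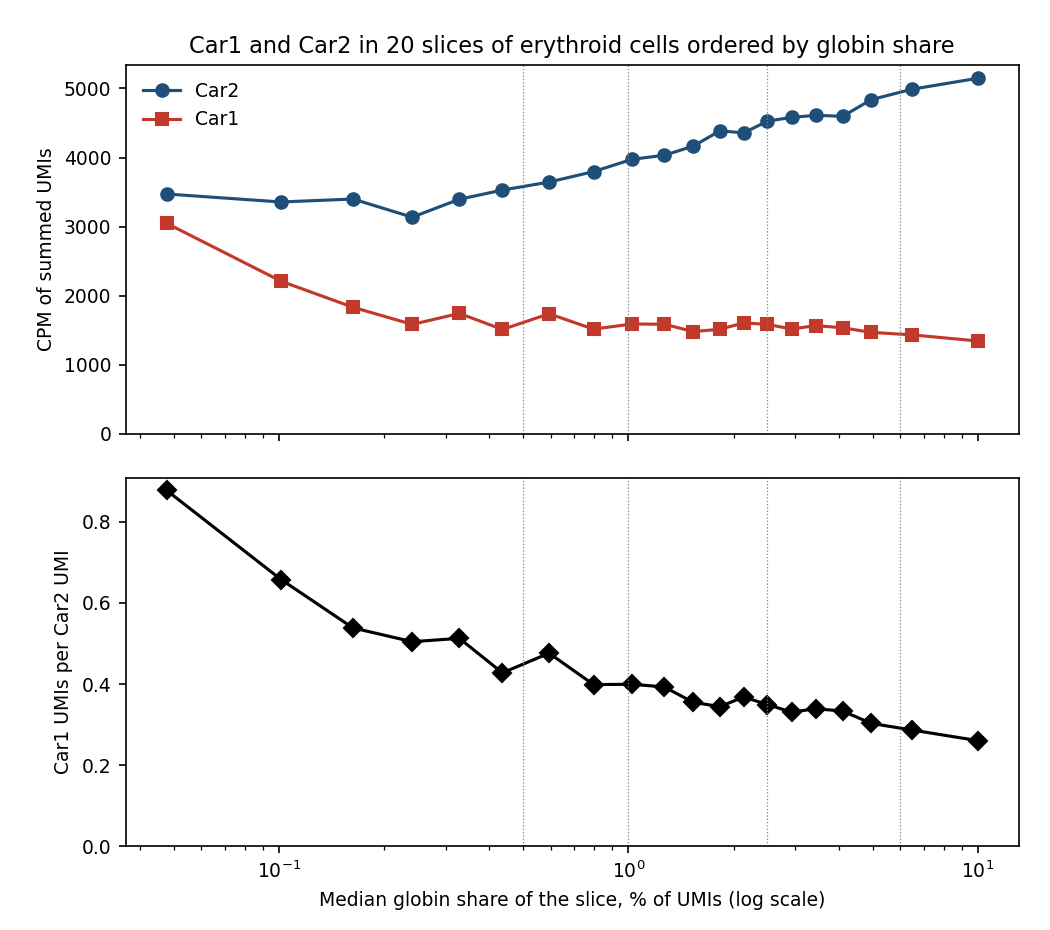
Levels of Car1 and Car2 in CPM (top) and Car1 UMIs per Car2 UMI (bottom) in 20 slices of the erythroid cells with equal cell numbers, against the median globin share of the slice (percent of UMIs, log axis). Dotted lines mark the limits of the globin bins. Car1 goes down from 3047 CPM in the first slice to 1341 CPM in the last, and Car2 up from 3471 to 5149 CPM.

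In 20 slices of 321 or 322 cells the first slice, with a median globin share of 0.0478%, had 3047 CPM of Car1 and 3471 CPM of Car2, a ratio of 0.878. The last slice, with a median share of 10.0%, had 1341 and 5149 CPM, a ratio of 0.261. Car2 was not lowest at the start: its minimum, 3135 CPM, was in the fourth slice. Over the same slices Kit, the receptor of early progenitors, went from 56.2 to 0.42 CPM and Slc4a1 from 7.47 to 870 CPM.

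The share of Car1 was also taken cell by cell. In cells with at least 20 UMIs of the pair the median share of Car1 was 37.3% in 1059 cells under 0.5% globin, 26.4, 25.2 and 24.0% in the middle bins, and 20.9% in 537 cells with 6% or more. Car1 outnumbered Car2 in 239 cells (22.6%) of the lowest bin, in 9, 9 and 5 cells of the middle bins, and in 0 of the 537 cells of the highest. The spread within the lowest bin was wide, with quartiles of 26.1 and 48.9%, against 13.6 and 26.9% in the highest. The limit of 20 UMIs acted unequally, keeping 1059 of 1914 cells in the lowest bin and 537 of 579 in the highest, and cells with few UMIs of the pair are not described by these shares.

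**Figure D3:**
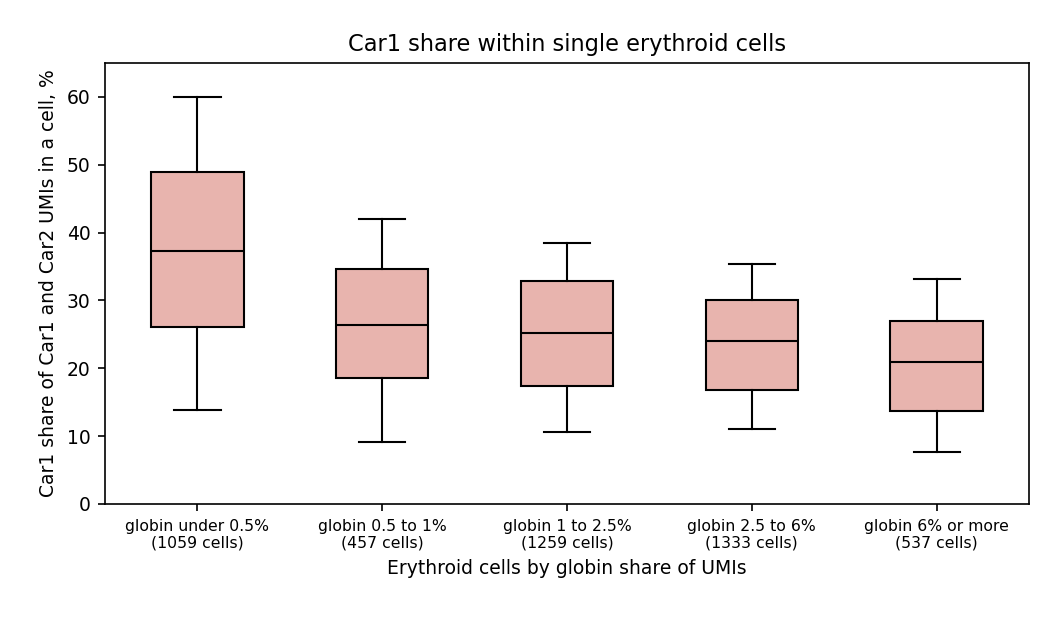
Share of Car1 among the Car1 and Car2 UMIs of single erythroid cells (percent, cells with at least 20 such UMIs) by globin bin. Boxes show the median and the quartiles, and the whiskers reach the lowest and highest 10% of cells. The median is 37.3% in the lowest bin and 20.9% in the highest.

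Most erythroid cells held both transcripts. With each cell thinned to 2000 UMIs of 1 lane, which leaves out shallower cells, 70.0% of 1614 cells in the lowest bin had both, 24.2% had Car2 only, 2.66% had Car1 only and 3.16% had neither. In the highest bin 81.4% of 566 cells had both, 18.2% Car2 only, 0.353% Car1 only and 0 neither. Unthinned, Car1 was seen in 83.8% and 95.3% of cells at the ends of the range and Car2 in 96.0% and 100%, at median depths of 10536.5 and 33785 UMIs. Thinned to 2000 UMIs, Car1 was seen in 72.6% and 81.8% of cells at these ends. So the share of cells with Car1 was higher where its level was lower, at equal depth too. No order of level is read from these shares.

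The lowest bin was a mixture. Cluster 8, with 417 of its cells, had nearly equal levels of Car1 (3388 CPM) and Car2 (3552 CPM), a ratio of 0.954 (0.933 to 0.975). Cluster 3, with 467 cells, had 2095 and 3760 CPM, a ratio of 0.557. Clusters 0 and 5, with 724 and 296 cells, had far less of both, 327 and 532 CPM of Car1 and 1144 and 1937 CPM of Car2, at ratios of 0.286 and 0.275. These cells were shallow, with medians of 5009.5 and 9099 UMIs against 66331 in cluster 3. Genes named after their values were seen led these clusters: the non-coding Gm26917, histones and the heat shock gene Hspa1b in cluster 0, mitochondrial transcripts in cluster 5 (median 12.9% of UMIs) and histones in the small cluster 13.

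Clusters 0, 5 and 13 made up 53.3% of the cells under 0.5% globin and 9.15% of those with 6% or more, so their share moved with the comparison. Without them Car1 was 2386 CPM in the lowest bin and 1413 CPM in the highest, Car2 was 3715 and 5168 CPM, and the ratio 0.642 and 0.273. The direction between the ends was the same for each gene, with log2 ratios of -0.76 for Car1 and 0.48 for Car2. Within clusters 0 and 5 Car1 did not run this way. Over the 4 bins below 6% globin it was 327, 354, 376 and 307 CPM in cluster 0 and 532, 534, 655 and 672 CPM in cluster 5. Car2 went from 1144 to 1834 and from 1937 to 2889 CPM there, and the ratio from 0.286 to 0.167 and from 0.275 to 0.233. Car1 had no steady order in cluster 1 (1500, 1574 and 1418 CPM from 1% globin up) or cluster 7 (1589, 1722 and 1624 CPM from 0.5 to 6%). It went down in cluster 3 (2095 to 1700 CPM below 2.5%), cluster 6 (1673 to 1435 CPM from 0.5% up) and cluster 8 (3388 to 2037 CPM below 2.5%). Beyond the named erythroid cells, an unnamed cluster of 250 shallow cells (median 1640 UMIs) had the most globin, a median of 11.9%, and 11471 CPM of the erythroid list. It had 455 CPM of Car1 and 2887 CPM of Car2, a ratio of 0.158 (0.129 to 0.192), lower than in any globin bin.

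The genes whose levels ran most like each enzyme over the 20 slices were named among 1369 genes with at least 100 CPM in erythroid cells. For Car1 they included Prdx1, a peroxidase (Pearson r = 0.932), Csnk2b, a kinase subunit (0.915), Myl12a, a myosin light chain (0.904) and Bex4 (0.901). Prdx1 went from 281 CPM in the lowest bin to 220 CPM in the highest and Bex4 from 147 to 85.0 CPM. For Car2 they were Tmem256 (0.994), Glrx5, a glutaredoxin of iron-sulfur cluster assembly (0.993), Tpt1 (0.993), Oaz1, which restrains polyamine synthesis (0.992), and Atp5h, a subunit of the ATP synthase (0.987). Glrx5 went from 660 to 1202 CPM and Tmem256 from 142 to 265 CPM. Between Car1 and Car2 themselves r was -0.58. These slices share a sample, a depth gradient and the globin share in their totals, so the values describe likeness and no more.

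Outside the erythroid cells Car1 and Car2 were low in every named group, and so was the erythroid list. LEPR stromal cells had 95.7 CPM of Car1 (86.3 to 106) and 208 CPM of Car2 (194 to 223), against 1661 and 4189 CPM over all erythroid cells. The log2 ratios were -4.12 (-4.27 to -3.97) and -4.33 (-4.43 to -4.23). The 805 low-depth cells with LEPR markers had 250 and 648 CPM, and with them counted in, the levels were 139 and 331 CPM. Megakaryocytes had 170 and 418 CPM, endothelial cells 157 and 343 CPM, fibroblasts 54.6 and 136 CPM and osteoblasts 97.7 and 79.1 CPM. Plasma cells, an immune type in which neither enzyme is a marker, had 294 and 685 CPM, but most of it lay in a few cells: in the 37 of 44 with at most 5 UMIs of the erythroid list the levels were 28.7 and 60.5 CPM. In the 101 megakaryocytes chosen this way they were 62.3 and 206 CPM, and in the 1095 LEPR stromal cells 84.0 and 179 CPM. In 44 endothelial cells they were 161 and 321 CPM and in 43 fibroblasts 57.8 and 140 CPM, near the values of all cells in these groups. The 23 megakaryocytes with no UMI of the list had 96.0 and 331 CPM. These cells were chosen after their values were seen.

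In shares of cells, a Car2 UMI was seen in 62.4% of LEPR stromal cells (median 6504 UMIs), 78.8% of megakaryocytes (8763.5 UMIs) and 79.5% of plasma cells (30296 UMIs). Thinned to 2000 UMIs the shares were 31.2, 33.7 and 26.8%, against 97.4% in erythroid cells. For Car1 the thinned shares were 16.4, 11.2 and 14.6%, against 77.0% in erythroid cells. The plasma cell share of Car2 rests on 11 of 41 cells. Droplets take up free RNA, and no expression by stromal cells or megakaryocytes is read from these shares. The part of free RNA was not tested.

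Car1 and Car2 were then set against the other erythroid transcripts in the same cells. Per 1000 UMIs of the erythroid list there were 1161 UMIs of Car2 in erythroid cells, 986 (895 to 1087) in LEPR stromal cells, 973 in the low-depth LEPR-marker cells, 1091 (628 to 1901) in fibroblasts and 1405 (776 to 2586) in endothelial cells. The intervals of LEPR stromal and of low-depth LEPR-marker cells (891 to 1063) lay below the erythroid value. Megakaryocytes lay below it too, at 791 (712 to 880), and plasma cells above, at 1707 (1469 to 1986). Car1 gave 460 per 1000 in erythroid, 454 in LEPR stromal, 436 in fibroblasts and 322 in megakaryocytes. It was above the erythroid value in plasma cells, at 734 (609 to 882), and at 643 (299 to 1335) in endothelial cells and 913 (357 to 2312) in osteoblasts, with intervals that hold the erythroid value. The Car1-to-Car2 ratio was 0.396 in erythroid, 0.460 (0.406 to 0.520) in LEPR stromal, 0.407 in megakaryocytes, 0.430 in plasma cells and 0.458 in endothelial cells. In osteoblasts it was 1.24 (0.453 to 3.48), from 21 and 17 UMIs. Single barcodes weighed on the small groups. One megakaryocyte barcode held 260 of the 513 Car1 and 359 of the 1260 Car2 UMIs of that group, and without it there were 195 Car1 and 694 Car2 UMIs per 1000. One plasma cell barcode held 141 of 408 and 275 of 949, and without it there were 634 and 1601 per 1000. In the 492 LEPR stromal cells with no UMI of the erythroid list the levels were still 80.4 CPM of Car1 and 177 CPM of Car2, and the part of free RNA in them was not tested.

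**Figure D4:**
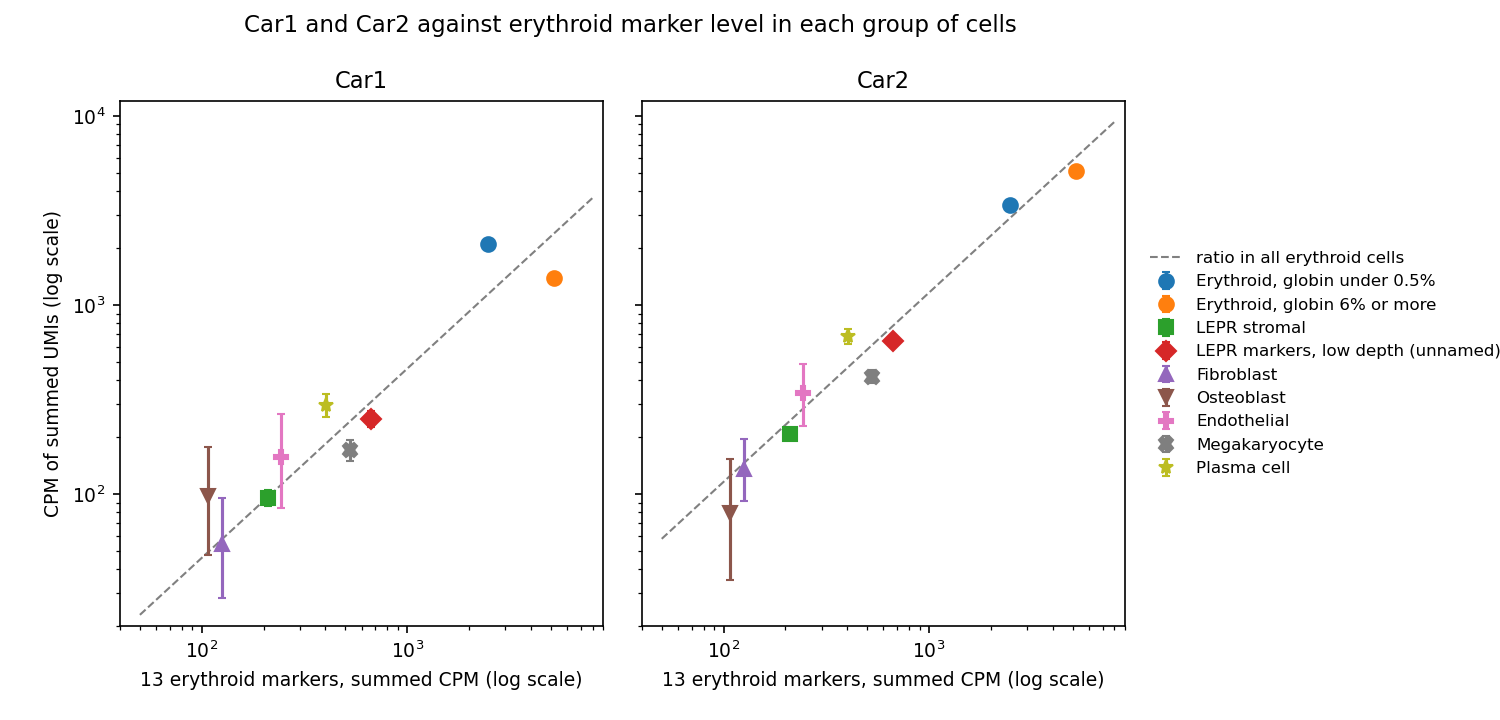
Level of Car1 (left) and Car2 (right) in CPM against the summed CPM of the 13 erythroid markers, both on log axes, in each group of cells, with the lowest and the highest globin bin for the erythroid cells. Bars are exact 95% counting intervals, and the dashed line is the ratio over all erythroid cells. LEPR stromal cells lie near the line at 211 CPM of the markers and 208 CPM of Car2, and plasma cells above it at 401 and 685 CPM.

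Osteoclasts, the bone cells that use Car2, were not found as a cluster. The osteoclast list went from 29.6 CPM in the lowest globin bin to 267 CPM in the highest. Of this, Acp5, a phosphatase named here after its values were seen, made up 27.4 and 266 CPM. Over all erythroid cells Acp5 was 99% of the list, and the other genes of the list summed to 1.37 CPM. No Car2 level of osteoclasts can be given.

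Car3, an enzyme best known from muscle and fat, had its highest level in osteoblasts. The 24 osteoblasts, 0.251% of the kept cells, held 248 of its 1275 UMIs (19.5%), 111 in one lane and 137 in the other. Their level was 1153 CPM (959 to 1375), and 15 of the 24 had a UMI. By cell, 9 had none, 3 had 1 or 4 UMIs, and the other 12 had from 5 to 50. In the 12 cells with at least 5 Car3 UMIs the osteoblast list (Bglap, Ibsp, Col1a1 and others) summed to 68839 CPM, against 111768 CPM in the other 12. In these 12 cells the muscle list, at 24.1 CPM, was no higher than in the others (33.1 CPM) and the adipocyte list was at 0. The chondrocyte list was at 1279 CPM in these 12 cells against 596 CPM in the other 12, and its part in the Car3 level was not tested. LEPR stromal cells had 3.02 CPM of Car3 (1.56 to 5.28), with 11 of the 24 UMIs in 2 cells, and 1.64 CPM (0.632 to 3.47) without these. In the 2 cells the adipocyte list was at 1035 CPM against 89.2 CPM in the others. With all cells there was a log2 ratio of osteoblasts over LEPR stromal cells of 8.57 (7.72 to 9.57). Fibroblasts and endothelial cells had 0 UMIs, which allows up to 13.6 and 34.8 CPM.

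Elsewhere high Car3 lay in a few barcodes. In unnamed cluster 9, 3 barcodes held 55 of its 73 Car3 UMIs, and there the muscle list summed to 125950 CPM. In unnamed cluster 11, where 27.1% of barcodes were called doublets, 1 barcode held 36 Car3 UMIs, with the osteoblast list at 6998 CPM (1487 CPM in the others) and the adipocyte list at 6248 CPM (21.0 CPM in the others). In the other cells of the fibroblast cluster 1 barcode held 11 Car3 UMIs, with 41281 CPM of the osteoblast list (16270 CPM in the others) and 0 of the muscle and adipocyte lists. Of the erythroid cells 10 had 5 or more Car3 UMIs, 77 in all, with a muscle list of 1024 CPM against 41.9 CPM in the other erythroid cells. The part of muscle, fat or osteoblast RNA in these barcodes was not tested.

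Over all erythroid cells, those 10 included, Car3 was low and was lower at high globin. Its level was 6.49 CPM (5.51 to 7.58) under 0.5% globin, then 4.31, 3.65 and 3.03 CPM, and 1.66 CPM (0.952 to 2.70) at 6% or more, a log2 ratio of -1.96 (-2.80 to -1.22) between the ends. Within the lowest bin it was 12.1 CPM in cluster 8 (113 UMIs), 6.15 CPM in cluster 3 (192 UMIs) and 0.249 CPM in the shallow cluster 0 (1 UMI). Per 10000 Car1 UMIs there were 30.9 Car3 UMIs (26.3 to 36.2) in the lowest bin and 11.99 (6.85 to 19.5) in the highest, so Car3 was lower at high globin relative to Car1, its neighbour on the chromosome, too. Without the 10 cells of 5 or more Car3 UMIs, left out after their values were seen, it was 5.39 CPM in the lowest bin, a log2 ratio of -1.70 (-2.55 to -0.94) between the ends, and 25.7 Car3 UMIs (21.5 to 30.6) per 10000 of Car1. A Car3 UMI was seen in 7.27% of erythroid cells and in 0.799% of LEPR stromal cells, at median depths of 28688.5 and 6504 UMIs, and thinned to 2000 UMIs in 0.641 and 0.466%. The part of free RNA in these levels was not tested.

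Car13 was spread thinly and was the 1 member at least 2-fold higher in LEPR stromal than in erythroid cells. It had 7.69 CPM (5.21 to 10.9) in LEPR stromal cells, with 6.15 and 9.17 CPM in the lanes, and 2.36 CPM (2.07 to 2.67) in erythroid cells, a log2 ratio of 1.70 (1.11 to 2.25). Among 14812 genes with enough UMIs in that comparison 53.0% were at least 2-fold higher and 15.0% at least 2-fold lower in LEPR stromal cells, and the median log2 ratio was 1.17. Of the 4 members with enough UMIs, 1 was higher (Car13), 2 were lower (Car1 and Car2) and Car3 was at -0.41 (-1.37 to 0.41). Car13 was thus not far from the median gene of this comparison. Across the globin bins it was 2.47, 2.29, 2.51, 2.29 and 1.92 CPM, with a log2 ratio of the ends of -0.36 (-1.20 to 0.42), so no change was detectable at this depth. Megakaryocytes had 5.98 CPM (2.73 to 11.3) from 18 UMIs, and fibroblasts, osteoblasts and endothelial cells 2 to 4 UMIs each.

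Car4, the anchored enzyme known from capillary walls, was found almost wholly in endothelial cells. Of its 28 UMIs 25 were there, 11 and 14 by lane, in 9 of the 45 cells (20.0%), at 145 CPM (76.2 to 251). This share and level depend on the clustering. The cluster named endothelial had 219 cells at resolution 1.2 and 47 with at most 10% mitochondrial UMIs, while 11 kept cells in all had a Car4 UMI. The remaining UMIs were 1 in a LEPR stromal cell and 2 in unnamed cells of the fibroblast cluster. The 6428 erythroid cells had 0 UMIs, which allows up to 0.0287 CPM. The highest endothelial cell had 8 UMIs.

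Car8, which binds an intracellular calcium channel in neurons, was found in endothelial cells (12 UMIs in 7 cells, 69.7 CPM) and fibroblasts (13 UMIs in 5 cells, 29.6 CPM). The log2 ratio of endothelial cells over fibroblasts was 1.24, with an interval from -0.64 to 3.08 that holds 0. Other cells of the fibroblast cluster had 10 UMIs, megakaryocytes 3 in 1 cell, and erythroid cells 1. Both Car4 and Car8 were found in 5 of the 45 endothelial cells, out of 9 with Car4 and 7 with Car8.

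**Figure D5:**
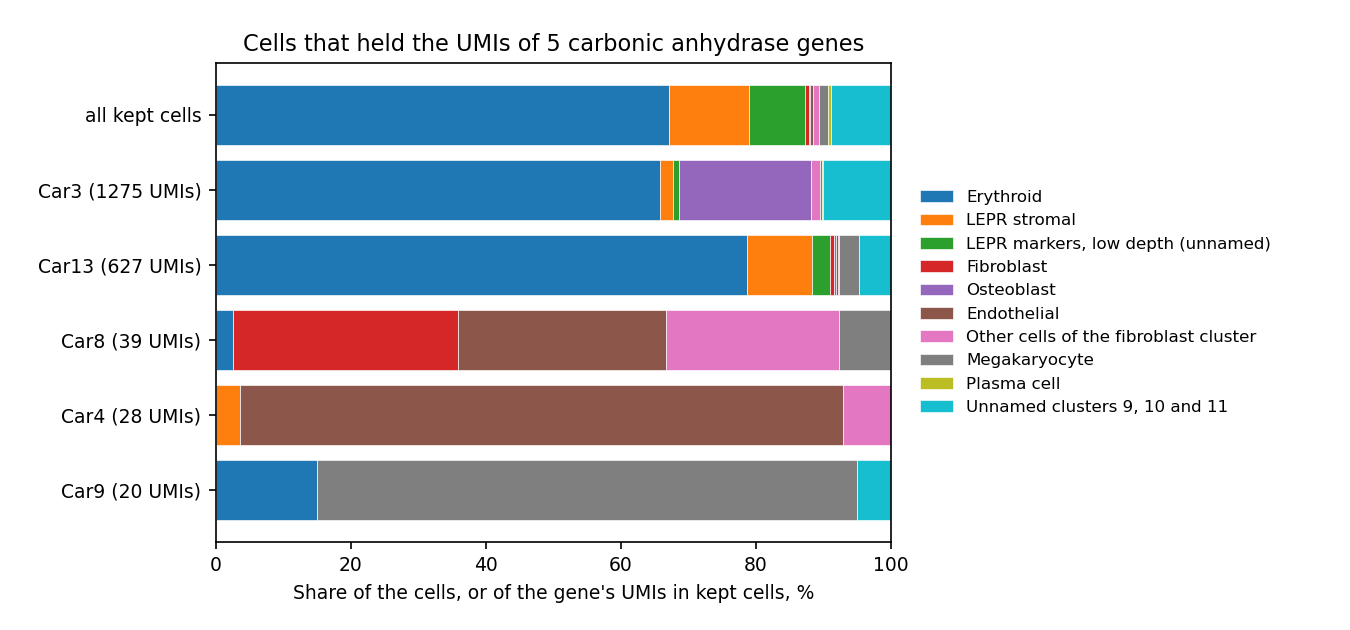
Share of all kept cells (top bar, percent) and of the UMIs of Car3, Car13, Car8, Car4 and Car9 (percent of the gene's UMIs) that lay in each group of cells. Osteoblasts take 19.5% of Car3 UMIs, endothelial cells 25 of 28 Car4 UMIs and megakaryocytes 16 of 20 Car9 UMIs.

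Car9, the surface enzyme induced by low oxygen, was found mostly in the megakaryocyte group, at a very low level. Of its 20 UMIs 16 were in megakaryocytes, in 9 of the 132 cells (6.82%), at 5.31 CPM (2.29 to 10.5). Erythroid cells had 3 and cluster 9 had 1. The 9 megakaryocytes with Car9 had a median depth of 101470 UMIs against 8090 in those without, and all 9 also had a Car2 UMI. This group also held markers of other cells: over its 132 cells the neutrophil list summed to 3764 CPM, the plasma cell list to 1807 CPM, the macrophage list to 649 CPM, the B cell list to 302 CPM and the T or NK cell list to 180 CPM, against 32092 CPM of the megakaryocyte list. In the 9 cells with Car9 the megakaryocyte list was at 41465 CPM, with a UMI in 7 of them. Their neutrophil list was at 2663 CPM, with a UMI in 2. Of the 123 cells without Car9, 106 had a UMI of the megakaryocyte list. The part of other cells in the Car9 UMIs was not tested. Car12 had 3 UMIs in erythroid cells, 2 in 1 megakaryocyte and 1 in another cell of the fibroblast cluster, too few to place it. Car9 exons overlap those of Gm12454 on the opposite strand.

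The genes of the oxygen response that were set beside Car9 did not mark the same cells throughout. Of 10 such genes 9 had enough UMIs to compare LEPR stromal with erythroid cells. In LEPR stromal cells 5 were at least 2-fold higher, among them Vegfa, a vessel growth factor (201 against 3.41 CPM), Slc2a1, a glucose transporter (14.4 against 0.0431 CPM), and Adm, a vasodilator peptide (40.5 against 0.0909 CPM), and 0 were 2-fold lower, in a comparison where 53.0% of all genes were 2-fold higher. Pgk1, Ldha and Pdk1 lay lower by less than that, at log2 ratios of -0.81 (-1.06 to -0.56), -0.74 (-0.86 to -0.62) and -0.97 (-1.34 to -0.62). Within erythroid cells all 7 with enough UMIs were at least 2-fold lower in the globin-rich cells, at a median log2 ratio of -2.09, against 29.1% of all genes and a median of -0.53. Ldha, which makes lactate, went from 412 to 96.8 CPM and Pgk1, of glycolysis, from 80.7 to 37.5 CPM. Megakaryocytes had 1126 CPM of Ldha and 268 CPM of Pgk1. Oxygen was not measured.

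Single transporters that work with carbonic anhydrases differed in level along the globin range. Of 21 genes for carbon dioxide, bicarbonate and acid transport 13 had enough UMIs, 2 were at least 2-fold higher in the globin-rich cells and 4 lower, with a median log2 ratio of -0.31, beside 4.39% higher, 29.1% lower and a median of -0.53 over all genes. Slc4a1, the anion exchanger, went from 35.6 to 810 CPM, a log2 ratio of 4.51 (4.40 to 4.61), and Rhd, a blood group protein of the ammonia and gas channel family, from 267 to 653 CPM. Aqp1, a water channel, went from 233 to 465 CPM, just under 2-fold, and Rhag, the partner of Rhd, from 182 to 283 CPM. The 4 lower genes were the bicarbonate cotransporter Slc4a7 (20.6 to 6.76 CPM), the anion exchanger Slc26a1 (15.02 to 2.60 CPM), the scaffold Slc9a3r1 (7.25 to 2.29 CPM) and the lactate carrier Slc16a3 (3.15 to 1.35 CPM).

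In LEPR stromal cells, of 17 of these genes with enough UMIs, 9 were at least 2-fold higher than in erythroid cells and 7 lower. Over all genes 53.0% were higher and 15.0% lower, so the number of higher genes was near the background. Hvcn1, a voltage-gated proton channel, had 130 CPM against 0.158 CPM in erythroid cells, a log2 ratio of 9.68 (8.98 to 10.49). Slc4a2, the anion exchanger of most non-erythroid cells, had 35.7 against 5.82 CPM and Slc4a4, a sodium bicarbonate cotransporter, 12.6 against 0.0191 CPM. The 7 lower genes were Slc4a1, Aqp1, Rhag, Rhd, Slc16a1, Slc16a3 and Slc26a1, at log2 ratios of the plain counts from -4.49 to -2.95. Of these, Slc16a3 rested on 1 UMI (mean of the lanes) in LEPR stromal cells, with an interval from -8.36 to -0.55.

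The 8 carbonic anhydrase genes outside the list were rare. Car7 had 224 UMIs, 195 of them in erythroid cells at 0.933 CPM, and 11 in 10 of the 45 endothelial cells at 63.9 CPM (22.2 to 144). Car15 had 164 UMIs, 150 in erythroid cells. Car5b, a mitochondrial enzyme, had 130 UMIs, 47 of them in LEPR stromal cells at 5.92 CPM against 0.139 CPM in erythroid cells, a log2 ratio of 5.42 (4.41 to 6.47). Car11 had 32 UMIs, Car5a 15, Car14 8, Car6 3 and Car10 0.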

How the data were processed

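Deposited files held UMI counts per gene and barcode for 2 replicates of 1 pooled sample that share nearly all barcodes (called lanes here). The authors made them with Cell Ranger (build mm10). The file header gives software version 3.0.2, which differs from the Cell Ranger version named in the paper. Counts of the lanes were summed per barcode. Barcodes with at least 200 genes and at most 20% mitochondrial UMIs were clustered with the study's filters and SCTransform, but on summed lanes with no anchor integration: Seurat 5.3.0 (R 4.3.3), 3000 variable genes without carbonic anhydrases, 30 components, resolution 0.8. Clusters were named from 21 marker lists. Scrublet called 217 of 9507 barcodes in lane 1 and 186 of 9535 in lane 2 as doublets; they were kept. The lanes held 116827845 and 120556381 UMIs. Intervals of CPM (Poisson), shares (Clopper-Pearson) and ratios (conditional binomial, on the mean of the lanes) are exact, and a count of 0 allows 3. In counts of 2-fold genes, a value under 3 UMIs stood at 3. Named genes were the members, the other carbonic anhydrases, transport and oxygen lists, and the 5 genes most like Car1 and Car2; 1 of these genes and 1 sequence are not reported here. Members and lists were chosen with earlier results of these data known. The alternatives are in the closing section. Positions were read from GENCODE M21, which held 32158 of the 32285 genes.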

Additional observations from a re-analysis of the deposited data

How the results depend on the processing

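Alternatives were run for Car1 and Car2 along the globin range, for the counts of members in LEPR stromal cells, and after seeing the data for some levels of Car1, Car2 and Car3. The other results were run under none. The globin-range values kept their direction in each. The log2 ratio of globin-rich over globin-poor erythroid cells moved, for Car1, Car2 and their ratio in this order, to -0.22, 1.01 and -1.24 with the mean of per-cell CPM, to -0.35, 0.88 and -1.24 with cells thinned to 2000 UMIs, to -0.79, 0.43 and -1.22 at resolution 0.4, which left 83 of 579 globin-rich cells because a globin-rich cluster of 1927 cells went unnamed, and to -0.76, 0.48 and -1.23 without clusters 0, 5 and 13 (an alternative added after seeing the data). For Car1 and Car2 alone it was -0.64 and 0.56 with at most 10% mitochondrial UMIs, -0.46 and 0.73 with globin left out of the totals, and -0.66 and 0.54 between the ends of bins of equal cell number in place of fixed globin limits. With classes from markers per barcode Car2 was at 0.57. The other alternatives, 9 for Car1, 8 for Car2 and 11 for the ratio (each lane alone among them), left the values within their counting intervals. Without either lane the values were -0.60 to -0.59, 0.59 to 0.59 and -1.19 to -1.18. The counts of members 2-fold higher (1) and lower (2) in LEPR stromal cells were the same in all 15 alternatives. No paired analysis was possible because there is 1 group and the results come from no test. Car4, Car8, Car9 and Car12 rest on 6 to 39 UMIs each, which limits their precision, and the spread between mice is unknown.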
